A study of Arabidopsis thaliana with 18 samples.

Results

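In Arabidopsis seedlings in which histone H3.3 was knocked down, 120 nuclear genes were higher than in Col at both growth temperatures. They were chosen by their measured levels. For every nuclear gene, log2(group mean + 1) of TPM (a gene's transcripts as a share of the library's, corrected for gene length) was computed in h3.3kd and in Col. A gene was kept where h3.3kd exceeded Col by at least 1, which is a 2-fold difference in mean TPM + 1, at 27 °C and again at 21 °C. The rule took 120 of the 27445 nuclear genes listed, in a table of 27655 genes in all. The h3.3kd against Col differences below are therefore a description of the choice and carry no test. The RNA-seq libraries came from whole seedlings 7 days old, grown in short days, at 27 °C or at 21 °C. There were 3 genotypes at each temperature, with 3 libraries each and 18 in all: h3.3kd, the H3.3 knock-down line; elf7-3, a mutant allele of ELF7; and Col, the wild type. The sources used here do not say how the knock-down was made, whether it was 1 clone, or whether replicates came from separate cultures, and limma's p-values here gauge the scatter among libraries only, which could be technical.

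Chromatin wraps DNA around octamers of the core histones H2A, H2B, H3 and H4, and linker histone H1 binds the DNA between them. The replicative forms, such as H3.1 and most H4 genes, are transcribed mainly while DNA is copied, whereas the variant H3.3 is laid down throughout the cell cycle and is associated with transcribed genes. ELF7 is a subunit of the PAF1 complex, which travels with RNA polymerase II. Seedlings grown in moderate warmth lengthen their stems and leaf stalks, a response called thermomorphogenesis, and the study compared these genotypes at both temperatures in that setting.

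The genotype labels were checked on the targeted genes. The H3.3 genes AT4G40030, AT4G40040 and AT5G10980 together had 336 ± 11.3 TPM in h3.3kd, 1126 ± 11.5 TPM in elf7-3 and 974 ± 36.4 TPM in Col at 27 °C (mean ± SD, n = 3 each), and 333 ± 11.2 TPM in h3.3kd, 1478 ± 56.3 TPM in elf7-3 and 1371 ± 20.6 TPM in Col at 21 °C. AT5G10980 was the lowest of them in h3.3kd, with 17 ± 2.40 TPM in h3.3kd against 189.6 ± 6.53 TPM in Col at 27 °C. ELF7 had 13.0 ± 0.486 TPM in elf7-3, 36.3 ± 2.73 TPM in h3.3kd and 40.7 ± 0.475 TPM in Col at 27 °C. Between 18563 and 19225 genes reached 1 TPM in a library. Organelle genes held 0.128% to 0.343% of TPM in 17 libraries and 3.66% in h3.3kd replicate 1 at 27 °C; without that library the rule took 127 genes, 115 of them among the 120. The deposited values give no read counts, so depth per library is unknown.

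The 120 genes were low in Col and of ordinary abundance in h3.3kd. Their median level was 14.8 TPM in h3.3kd, 4.55 TPM in elf7-3 and 3.94 TPM in Col at 27 °C, and 10.3 TPM in h3.3kd, 3.36 TPM in elf7-3 and 2.83 TPM in Col at 21 °C. Over all nuclear genes tested the medians lay between 16.1 and 17.7 TPM in the 6 groups. The h3.3kd and Col levels are those that the rule used. It requires a mean of at least 1 TPM in h3.3kd, so none of the 120 could average below that. Below 1 TPM on average were 26 in elf7-3 and 31 in Col at 27 °C, and 29 in elf7-3 and 31 in Col at 21 °C. All 120 passed the filter on low values (1 TPM in at least 3 libraries), which the h3.3kd libraries alone ensured. In whole seedlings, fewer cells of a type and less RNA per cell cannot be told apart.

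The h3.3kd minus Col difference ran over 1.01 to 3.72 on the log2(TPM + 1) scale at 27 °C, with a median of 1.47, and over 1.0 to 3.69 at 21 °C, with a median of 1.36. The medians over all nuclear genes tested were -0.07 at 27 °C and -0.05 at 21 °C. The difference reached 2 in 25 of the 120 genes at 27 °C and in 16 at 21 °C. All 3 h3.3kd libraries lay above all 3 Col libraries in 117 of the 120 at 27 °C (22.7% of all genes tested) and in 116 at 21 °C (18.3% of all genes tested), as the rule made likely. Just inside the threshold stood AGL20 (1.433 at 27 °C and 1.004 at 21 °C), AT3G15570 (1.006 and 1.042) and MT1C (1.406 and 1.006). Just outside stood AT5G19500 (1.077 at 27 °C and 0.998 at 21 °C), the H3.1 gene AT3G27360 (1.742 and 0.997) and AT5G08250 (0.994 and 1.427). Alone, 21 °C would have kept 257 nuclear genes and 27 °C 426, and 287 genes were lower in h3.3kd by at least 1 at both temperatures.

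**Figure D1:**
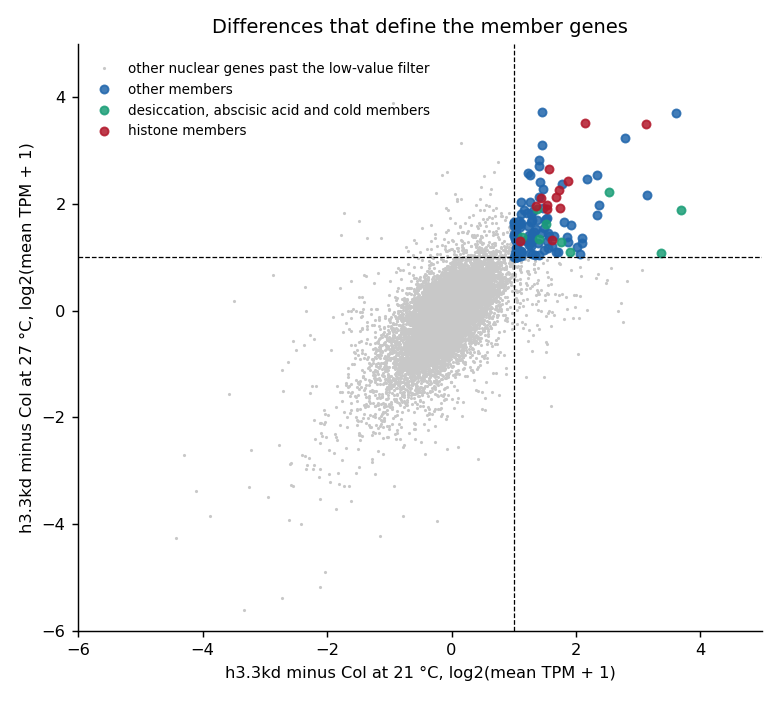
Each point is a nuclear gene, with its h3.3kd minus Col difference at 21 °C on the x axis and at 27 °C on the y axis, both in log2(group mean TPM + 1). The 120 chosen genes fill the upper right corner that the threshold of 1 on each axis marks off, and the histone genes, in red, include HIS1-3 at 3.51 and 3.12.

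Histones made up the largest part of what the 120 genes expressed. The list held 13 histone genes: linker histone HIS1-3, 7 of the 8 H4 genes, 3 H2B genes, HTA7 (an H2A gene) and AT1G13370 (an H3 gene outside the H3.1 and H3.3 groups). They took 50.9% of the summed TPM of the 120 genes in h3.3kd at 27 °C and 51.7% at 21 °C. HIS1-3, a small linker histone known to be raised by drought and abscisic acid, was the most abundant of the 120 in h3.3kd. At 27 °C it had 2117, 1983 and 2233 TPM in h3.3kd, 125, 86.1 and 115 TPM in elf7-3 and 163, 204 and 187 TPM in Col. At 21 °C it had 1102, 1142 and 1004 TPM in h3.3kd, 71.2, 100.3 and 91.2 TPM in elf7-3 and 125, 126 and 119 TPM in Col. The h3.3kd libraries stood about an order of magnitude above the rest, and the elf7-3 libraries lay below all Col libraries at each temperature. The difference from Col was 3.51 at 27 °C and 3.12 at 21 °C for HIS1-3. The other linker histone genes, AT1G06760 and AT2G30620, were also higher in h3.3kd (0.78 and 1.03 at 27 °C, 0.80 and 0.98 at 21 °C in the limma fit), but neither reached 1 at both temperatures.

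The H4 genes, which all encode one protein, were higher together. Summed over 8 genes, H4 had 2213 ± 40.1 TPM in h3.3kd, 485 ± 13.6 TPM in elf7-3 and 444 ± 46.1 TPM in Col at 27 °C (mean ± SD, n = 3 each), 4.99 times the Col level in h3.3kd. At 21 °C it had 2427 ± 103 TPM in h3.3kd, 811 ± 30.8 TPM in elf7-3 and 762 ± 17.2 TPM in Col, 3.19 times the Col level. AT3G53730 had the largest H4 difference, 3.51 at 27 °C and 2.14 at 21 °C. It had 512, 471 and 496 TPM in h3.3kd, 44.7, 42.4 and 46.0 TPM in elf7-3 and 42.6, 47.1 and 37.3 TPM in Col at 27 °C. It had 467, 469 and 417 TPM in h3.3kd, 100.1, 89.2 and 101 TPM in elf7-3 and 105, 93.1 and 106 TPM in Col at 21 °C. The h3.3kd libraries lay in much the same range at both temperatures, while the Col and elf7-3 libraries were lower at 27 °C than at 21 °C. AT5G59690, the most abundant H4 gene, had 667, 617 and 616 TPM in h3.3kd, 179.7, 158 and 159 TPM in elf7-3 and 164, 137 and 131 TPM in Col at 27 °C. At 21 °C AT5G59690 had 719, 711 and 666 TPM in h3.3kd, 261, 259 and 261 TPM in elf7-3 and 211, 215 and 224 TPM in Col, again with no overlap between h3.3kd and the other genotypes. The other chosen H4 genes, AT1G07820, HIS4, AT3G45930, AT5G59970 and AT3G46320, had differences of 2.25, 1.91, 2.66, 1.98 and 1.95 at 27 °C and 1.74, 1.54, 1.56, 1.53 and 1.35 at 21 °C. AT1G07660, the H4 gene that the rule left out, differed by 0.79 at 27 °C and 0.69 at 21 °C. H4 coding sequences are 78.8% to 98.1% identical over their 28 pairs in the RefSeq annotation and their translations are identical, so reads may be shared among them and the split between genes is uncertain.

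Among the other families, summed TPM of H2B genes was 1.72 times the Col level in h3.3kd at 27 °C and 1.51 times at 21 °C. H3.1 stood at 1.82 and 1.65 times, H2A at 1.52 and 1.42 times, and the H2A.Z variant genes at 0.941 and 0.959 times. The H2B gene AT3G53650 had 18.6, 17.0 and 18.3 TPM in h3.3kd, against 0.782, 2.56 and 4.15 TPM in Col at 27 °C. At 21 °C AT3G53650 had 15.5, 16.1 and 17.9 TPM in h3.3kd, against 4.06, 2.74 and 4.48 TPM in Col, with no overlap at either temperature. HTA7 had 214, 203 and 231 TPM in h3.3kd, against 91.1, 90.9 and 77.4 TPM in Col at 27 °C and differed by 1.31. The annotation held 49 histone genes in all, of which 46 were tested. Of the 30 tested genes that were neither chosen nor H3.3, 22 were called higher in h3.3kd than in Col by limma at 27 °C (20.2% of all genes tested) and 21 at 21 °C (12.7% of all genes tested) at an adjusted p under 0.05. Their differences ran over -0.21 to 1.74 at 27 °C, with a median of 0.66, and over -0.07 to 1.33 at 21 °C, with a median of 0.45. All 5 H3.1 genes were called higher at both temperatures, with AT3G27360 at the edge of the rule. This contrast is the one that chose the 13, so these counts describe the families and add no separate support.

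**Figure D2:**
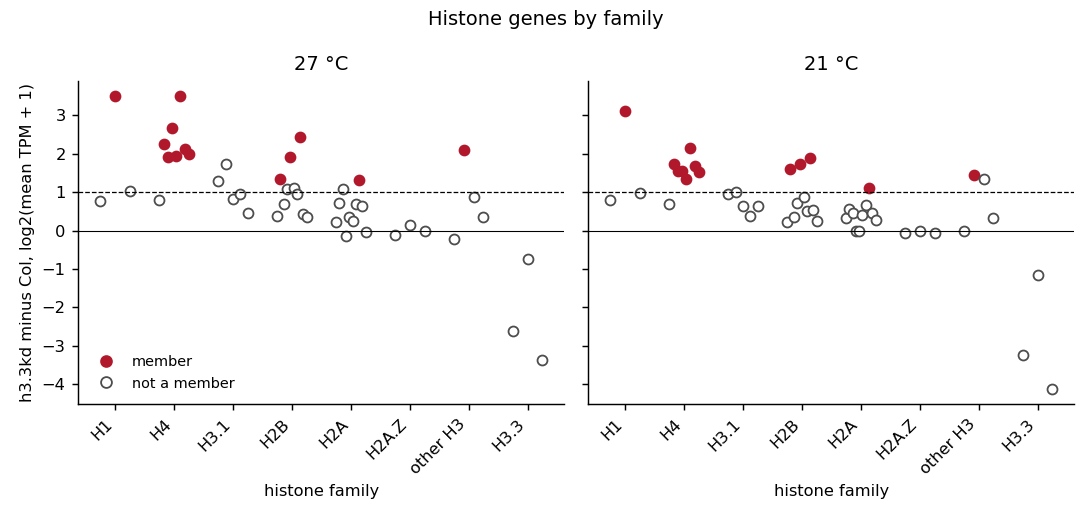
Every tested histone gene is a point at its h3.3kd minus Col difference in log2(group mean TPM + 1), by family, with 27 °C and 21 °C apart and the chosen genes marked. H4 has the highest medians, 2.05 at 27 °C and 1.55 at 21 °C, and H3.3 lowest, with -2.62 at 27 °C and -3.23 at 21 °C. Filled points are chosen genes and the dashed line is the threshold of 1.

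Promoter sequence is shown for 5 histone genes, 4 with and 1 without a short element known from such genes. Plant histone promoters are known for the octamer CGCGGATC, and its 7-base core GCGGATC was searched on both strands in the 250 bases before each annotated gene start (RefSeq, TAIR10.1). The core was in 3 of the 13 chosen histone promoters (23.1%), in 3 of 8 H4 promoters (37.5%), in 8 of 38 other core histone promoters (21.1%), in 5 of the 120 (4.17%) and in 118 of all 19920 nuclear promoters searched among tested genes (0.592%). The full octamer was in 1 of the 13 chosen histone promoters (7.69%), in 2 of 8 H4 promoters (25%), in 7 of 38 other core histone promoters (18.4%), in 2 of the 120 (1.67%) and in 30 of the 19920 (0.151%). In the sequences below, each written 5′ to 3′ along the gene's strand, capitals mark the core on either strand. The match starts 70 bases before the gene start in AT5G59690, 161 before in AT5G59970, 125 before in the H4 gene AT1G07660 and 88 before in AT3G53650, where the core lies on the other strand. AT3G53730, the H4 gene with the largest difference, has no match in its window, and AT1G07660, which has one, is not among the 120.
AT5G59690 (H4), chr5:24051224-24051473, plus strand: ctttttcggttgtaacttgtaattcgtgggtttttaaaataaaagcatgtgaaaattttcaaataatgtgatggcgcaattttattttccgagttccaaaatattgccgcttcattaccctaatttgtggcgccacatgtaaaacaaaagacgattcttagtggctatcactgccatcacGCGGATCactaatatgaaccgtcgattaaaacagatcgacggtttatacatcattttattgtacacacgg
AT5G59970 (H4), chr5:24146730-24146979, minus strand: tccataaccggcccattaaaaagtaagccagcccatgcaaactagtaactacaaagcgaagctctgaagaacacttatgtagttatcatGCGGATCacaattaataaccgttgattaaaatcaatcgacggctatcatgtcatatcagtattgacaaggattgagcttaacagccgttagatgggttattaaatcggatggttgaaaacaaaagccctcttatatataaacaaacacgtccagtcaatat
AT1G07660 (H4, not among the 120), chr1:2368583-2368832, plus strand: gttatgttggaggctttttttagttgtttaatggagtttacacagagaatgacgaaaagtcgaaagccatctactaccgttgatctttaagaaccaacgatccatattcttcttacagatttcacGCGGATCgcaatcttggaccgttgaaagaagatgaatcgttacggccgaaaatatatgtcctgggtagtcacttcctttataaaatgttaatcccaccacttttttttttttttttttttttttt
AT3G53730 (H4), chr3:19913516-19913765, minus strand: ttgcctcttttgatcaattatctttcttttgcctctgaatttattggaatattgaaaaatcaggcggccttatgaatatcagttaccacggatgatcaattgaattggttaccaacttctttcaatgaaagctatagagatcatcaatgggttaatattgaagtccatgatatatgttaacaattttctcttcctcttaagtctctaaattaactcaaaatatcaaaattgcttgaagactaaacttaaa
AT3G53650 (H2B), chr3:19889047-19889296, plus strand: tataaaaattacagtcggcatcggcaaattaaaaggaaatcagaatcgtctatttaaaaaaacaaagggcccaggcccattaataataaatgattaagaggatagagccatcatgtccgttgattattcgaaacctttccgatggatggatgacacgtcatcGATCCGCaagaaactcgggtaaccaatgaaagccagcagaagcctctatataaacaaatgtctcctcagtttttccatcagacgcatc

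A few of the 120 genes adjoin histone genes. Neighbours were listed only for the H3.3 genes, AT5G10390 and AT5G59690, and the share of all genes with a chosen neighbour was not computed. No listed neighbour of the H3.3 gene AT5G10980 is among the 120, and the nearest, AT5G10970, differed by -0.41 at 27 °C and -0.89 at 21 °C. AT4G40042, which encodes a subunit of the microsomal signal peptidase, starts 151 bases from the start of the H3.3 gene AT4G40040 and is read in the opposite direction. It had 97.2, 102 and 113 TPM in h3.3kd, 24.8, 15.9 and 17.9 TPM in elf7-3 and 17.7, 19.9 and 16.3 TPM in Col at 27 °C and 67.1, 75.7 and 82.0 TPM in h3.3kd, 19.5, 22.9 and 18 TPM in elf7-3 and 18, 12.5 and 16.7 TPM in Col at 21 °C. All h3.3kd libraries of AT4G40042 were above all others, while AT4G40040 itself was lower in h3.3kd (-0.75 at 27 °C and -1.15 at 21 °C). The stretch between these gene starts, read on the plus strand of TAIR10.1, holds 1 match to GCGGATC, in capitals.
Between AT4G40040 and AT4G40042, chr4:18558946-18559096, plus strand: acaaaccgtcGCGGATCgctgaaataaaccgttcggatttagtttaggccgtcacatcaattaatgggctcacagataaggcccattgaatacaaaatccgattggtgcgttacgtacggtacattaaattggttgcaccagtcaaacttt
On the far side of the H3.3 pair, AT4G40020 differed by 1.22 at 27 °C and 1.61 at 21 °C. It had 1.88, 3.91 and 2.99 TPM in h3.3kd, 3.36, 3.95 and 4.54 TPM in elf7-3 and 0.171, 0.957 and 0.948 TPM in Col at 27 °C, where the elf7-3 libraries were as high as those of h3.3kd. RING1, a ubiquitin ligase of the plasma membrane, lies 33 bases from the H3.1 gene AT5G10390 and differed by 1.82 at 27 °C and 1.12 at 21 °C. The H4 gene AT5G59690 stands between receptor-type kinase genes that are also among the 120. AT5G59680 lies 361 bases before it and differed by 1.43 at 27 °C and 1.05 at 21 °C, and AT5G59700 lies 164 bases after it and differed by 1.36 at 27 °C and 1.04 at 21 °C. No other neighbouring genes were chosen together.

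Genes of desiccation, abscisic acid and cold numbered 9, and their median difference was 1.39 at 27 °C and 1.76 at 21 °C. AT3G02480 encodes a late embryogenesis abundant protein, a class that builds up in drying tissue. It had 148, 128 and 163 TPM in h3.3kd, 64.6, 31.7 and 45.1 TPM in elf7-3 and 35.2, 41.9 and 39.5 TPM in Col at 27 °C. At 21 °C it had 436, 424 and 404 TPM in h3.3kd, 29.0, 26.3 and 29.0 TPM in elf7-3 and 35.2, 26.7 and 33.5 TPM in Col. In h3.3kd the level of AT3G02480 was thus higher at 21 °C than at 27 °C, while elf7-3 and Col lay lower at both. AT1G04560, an AWPM-19-like membrane protein, had 113, 88.7 and 125 TPM in h3.3kd, 82.8, 61.3 and 77.6 TPM in elf7-3 and 49.5, 54.7 and 48.9 TPM in Col at 27 °C, where elf7-3 lay between h3.3kd and Col with no overlap. At 21 °C AT1G04560 had 82.7, 101 and 87.1 TPM in h3.3kd, 6.94, 5.32 and 5.28 TPM in elf7-3 and 7.28, 8.62 and 7.70 TPM in Col, and h3.3kd stood far above both others. The cold-regulated gene COR15B, whose protein protects chloroplast membranes in freezing, had 4.06, 3.13 and 4.45 TPM in h3.3kd, against 0.101, 0.190 and 0.614 TPM in Col at 27 °C and 22.5, 12.2 and 43.4 TPM in h3.3kd, against 9.28, 8.53 and 10.5 TPM in Col at 21 °C. Its h3.3kd libraries at 21 °C spread widely but did not overlap those of Col.

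The rest of this group were the seed maturation gene AT3G22490 (2.22 at 27 °C and 2.54 at 21 °C), the oleosin gene AT3G01570 (1.29 at 27 °C and 1.76 at 21 °C), EM1 (1.63 at 27 °C and 1.51 at 21 °C), LTI78 (1.09 at 27 °C and 1.91 at 21 °C), AFP1 (1.35 at 27 °C and 1.41 at 21 °C) and SNRK2-8 (1.39 at 27 °C and 1.13 at 21 °C). Oleosins coat the oil bodies of seeds, EM1 is a late embryogenesis abundant protein, and LTI78, also known as RD29A, is a standard marker of drought and cold. AFP1 binds the abscisic acid factor ABI5, and SNRK2-8 is a kinase of osmotic stress signalling. Within a wider list of 14 tested genes of abscisic acid and late embryogenesis, limma called 5 higher and 2 lower in h3.3kd at 27 °C, and 7 higher and 1 lower at 21 °C. Of all genes tested, 20.2% were called higher and 31.6% lower at 27 °C, and 12.7% higher and 20.8% lower at 21 °C. Of 8 tested cold-regulated genes, 2 were higher and 2 lower at 27 °C, and 3 were higher and 1 lower at 21 °C. The wider list holds LTI78 and EM1 and the cold list COR15B, and the contrast is the one that chose them, so these counts are description. Of the seed storage and oil body markers CRA1, CRU3, SESA1, SESA3 and OLEO1, 0 were among the 120. Their summed level was 184 to 239 TPM in h3.3kd, 61.0 to 84.8 TPM in elf7-3 and 75 to 110.0 TPM in Col at 27 °C. At 21 °C it was 44.5 to 90.7 TPM in h3.3kd, 62.5 to 91.7 TPM in elf7-3 and 87.5 to 147 TPM in Col. The sum was thus high in h3.3kd at 27 °C but not at 21 °C. Limma called 2 of these 5 markers higher and 0 lower in h3.3kd than in Col at 27 °C, and 0 higher and 3 lower at 21 °C. Of 12 tested genes of seed storage and embryo, 3 were higher and 3 lower at 27 °C, and 2 were higher and 7 lower at 21 °C. The part of the seed markers in these results was not tested.

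Promoters of 3 genes of this group are shown for the abscisic acid response element. Its cores ACGTGT and ACGTGG were searched on both strands in the same windows. ACGTGT was in 5 of the 9 promoters (55.6%), in 21 of the 120 (17.5%) and in 11.25% of all nuclear promoters searched. ACGTGG was in 4 of the 9 (44.4%), in 18 of the 120 (15%) and in 9.12% of all. It was also in 34.2% of 38 core histone promoters other than H4. The window of LTI78 holds neither core. Neighbouring matches overlap where they share ACGT. Capitals mark either core on either strand.
AT3G02480 (late embryogenesis abundant protein), chr3:511970-512219, plus strand: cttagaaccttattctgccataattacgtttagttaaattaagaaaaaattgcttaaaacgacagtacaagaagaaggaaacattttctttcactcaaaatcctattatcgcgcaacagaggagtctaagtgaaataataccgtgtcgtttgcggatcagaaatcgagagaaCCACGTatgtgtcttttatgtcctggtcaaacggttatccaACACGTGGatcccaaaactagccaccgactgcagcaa
AT1G04560 (AWPM-19-like protein), chr1:1244697-1244946, plus strand: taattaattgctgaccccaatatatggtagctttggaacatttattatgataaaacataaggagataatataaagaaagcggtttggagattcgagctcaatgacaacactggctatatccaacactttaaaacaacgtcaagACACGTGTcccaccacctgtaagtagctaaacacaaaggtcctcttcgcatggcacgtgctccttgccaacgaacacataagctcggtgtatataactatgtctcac
EM1 (late embryogenesis abundant protein), chr3:19214472-19214721, plus strand: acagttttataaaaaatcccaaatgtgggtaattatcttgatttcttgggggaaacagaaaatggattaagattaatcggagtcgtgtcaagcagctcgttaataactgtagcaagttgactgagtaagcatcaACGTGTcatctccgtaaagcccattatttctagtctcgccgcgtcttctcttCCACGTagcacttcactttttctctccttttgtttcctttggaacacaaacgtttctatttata

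Genes of metals, minerals and transport numbered 8 and held 20.6% of the summed TPM of the 120 in h3.3kd at 27 °C and 16.8% at 21 °C, most of it from MT2A, a metallothionein that binds copper and zinc. MT2A had 1433, 1408 and 1436 TPM in h3.3kd, 519, 459 and 559.9 TPM in elf7-3 and 448, 388 and 387 TPM in Col at 27 °C. At 21 °C MT2A had 881, 826 and 957 TPM in h3.3kd, 327, 332 and 311 TPM in elf7-3 and 361, 356 and 377 TPM in Col. No h3.3kd library of MT2A overlapped a library of another genotype. A relative, MT1C, had 197, 243 and 244 TPM in h3.3kd, against 85.4, 86.8 and 83.8 TPM in Col at 27 °C and sat at the edge of the rule at 21 °C. ALMT1, the malate channel through which roots answer aluminium, differed by 2.38 at 27 °C and 1.78 at 21 °C. FRD3, which exports citrate for iron transport in the xylem, differed by 1.31 at 27 °C and 1.53 at 21 °C. FRO6, a ferric reductase of leaf cells, had 64.2, 54.6 and 65.4 TPM in h3.3kd, 6.77, 5.73 and 8.89 TPM in elf7-3 and 21.2, 18.4 and 17 TPM in Col at 27 °C, with elf7-3 below Col and h3.3kd above it. AT5G65980, of the auxin efflux carrier family, had 11.3, 14.5 and 18.8 TPM in h3.3kd, against 0.998, 0.502 and 1.01 TPM in Col at 27 °C and differed by 3.11 at 27 °C and 1.45 at 21 °C.

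Genes of redox, detoxification and secondary metabolism numbered 10, with median differences of 1.34 at 27 °C and 1.46 at 21 °C. AT1G07450 and AT1G09500 are annotated as NAD(P)-binding Rossmann-fold proteins. AT1G07450 had 30.5, 31.3 and 38.2 TPM in h3.3kd, 0.652, 0.912 and 0.513 TPM in elf7-3 and 3.71, 2.23 and 2.0 TPM in Col at 27 °C, and 17.5, 15.6 and 20.0 TPM in h3.3kd, 0.238, 0.700 and 0.134 TPM in elf7-3 and 1.75, 1.24 and 2.1 TPM in Col at 21 °C. Col held a few TPM of AT1G07450 and elf7-3 less than any Col library. AT1G09500 had 21.6, 22.0 and 24.0 TPM in h3.3kd, against 0.528, 0.493 and 1.33 TPM in Col at 27 °C, the largest difference of the 120 at that temperature (3.72). At 21 °C AT1G09500 had 4.09, 4.83 and 2.94 TPM in h3.3kd, against 1.16, 0.575 and 0.698 TPM in Col, a difference of 1.45. TT4, chalcone synthase, which opens the flavonoid pathway, had 118, 155 and 173 TPM in h3.3kd, against 82.4, 67.2 and 69.6 TPM in Col at 27 °C and differed by 1.01 at 27 °C and 1.06 at 21 °C. CYP81D8, a P450 raised by many chemical stresses, differed by 1.34 at 27 °C and 1.22 at 21 °C, and ADH1, alcohol dehydrogenase of low-oxygen metabolism, by 1.33 at 27 °C and 1.21 at 21 °C. NIT2, a nitrilase, differed by 1.14 at 27 °C and 1.49 at 21 °C, and DOGT1, a glucosyltransferase that acts on the fungal toxin deoxynivalenol, by 1.58 at 27 °C and 1.01 at 21 °C.

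Transcription, chromatin and genome upkeep held 13 genes, with medians of 1.41 at 27 °C and 1.27 at 21 °C. Some encode minor copies of subunits of polymerase complexes. RPB5D, a copy of the fifth subunit of RNA polymerases, had 22.7, 23.2 and 25.6 TPM in h3.3kd, against 6.68, 6.16 and 5.62 TPM in Col at 27 °C and differed by 1.8 at 27 °C and 2.35 at 21 °C. NRPE3B, annotated as a DNA-directed RNA polymerase subunit, had 10.8, 9.67 and 8.60 TPM in h3.3kd, 0.536, 0.429 and 0.633 TPM in elf7-3 and 3.81, 3.56 and 4.62 TPM in Col at 27 °C, with elf7-3 under 1 TPM. TAF14, annotated as a TBP-associated factor, differed by 1.41 at 27 °C and 1.24 at 21 °C. RR18, a response regulator of cytokinin signalling, had 5.72, 4.09 and 6.39 TPM in h3.3kd, against 0.291, 0 and 0 TPM in Col at 27 °C and differed by 2.54 at 27 °C and 1.27 at 21 °C. PARG2, which removes poly(ADP-ribose) and acts in DNA damage and defence, differed by 1.70 at 27 °C and 1.37 at 21 °C, and HEI10, a factor of meiotic crossing over, by 1.3 at 27 °C and 1.03 at 21 °C. AGL20, also known as SOC1, which promotes flowering, had 6.76, 4.2 and 6.08 TPM in h3.3kd, against 1.39, 1.83 and 1.2 TPM in Col at 27 °C.

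Cell wall genes numbered 8, with medians of 1.44 at 27 °C and 1.42 at 21 °C. Among them were EXPA2, an expansin that loosens walls (1.74 at 27 °C and 1.53 at 21 °C), ADPG1, a polygalacturonase of organ shedding and pod opening (1.40 at 27 °C and 1.64 at 21 °C), and GATL4, related to galacturonosyltransferases (1.47 at 27 °C and 1.43 at 21 °C). Kinases and ubiquitin ligases numbered 8, with medians of 1.38 and 1.12. LYK5, a receptor kinase that binds chitin, had 10.6, 10.8 and 11.5 TPM in h3.3kd, against 4.31, 5.03 and 5.16 TPM in Col at 27 °C, and MPK14, a mitogen-activated protein kinase, differed by 1.40 at 27 °C and 1.56 at 21 °C. Another 36 genes had some other annotation, with medians of 1.45 at 27 °C and 1.33 at 21 °C. They included PLIM2a, an actin-binding LIM protein (1.84 at 27 °C and 1.21 at 21 °C), HEMA3, a glutamyl-tRNA reductase of tetrapyrrole synthesis (1.71 at 27 °C and 1.52 at 21 °C), and AT5G20950, a glycosyl hydrolase with 279, 288 and 280.0 TPM in h3.3kd, against 115, 107 and 111 TPM in Col at 27 °C.

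The remaining 15 genes encode uncharacterised proteins, with medians of 1.58 at 27 °C and 1.3 at 21 °C. AT2G05915 had the highest mean difference of all 120 (3.70 at 27 °C and 3.62 at 21 °C), with 43.5, 36.5 and 53.0 TPM in h3.3kd, 5.72, 5.31 and 3.62 TPM in elf7-3 and 1.66, 1.16 and 4.61 TPM in Col at 27 °C and 33.2, 39.4 and 35.9 TPM in h3.3kd, 7.84, 2.19 and 3.37 TPM in elf7-3 and 1.57, 2.33 and 2.20 TPM in Col at 21 °C. It overlaps AT2G05914 on the other strand, and strand use in the authors' counting is not given in the sources used here. Such an overlap was present for 24 of the 120. AT5G23115, AT3G44950 and AT2G11891 overlapped between h3.3kd and Col at both temperatures, and AT2G12461 at 21 °C. AT5G23115, with an annotated length of 29 bases, had 115, 12 and 18.8 TPM in h3.3kd, 57.1, 44.4 and 99.8 TPM in elf7-3 and 0, 18.1 and 0 TPM in Col at 27 °C, and its libraries differed widely within every group. The median spread of the 120 genes within groups, SD over mean of TPM, was 16.6%, against 8.14% for all nuclear genes tested.

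**Figure D3:**
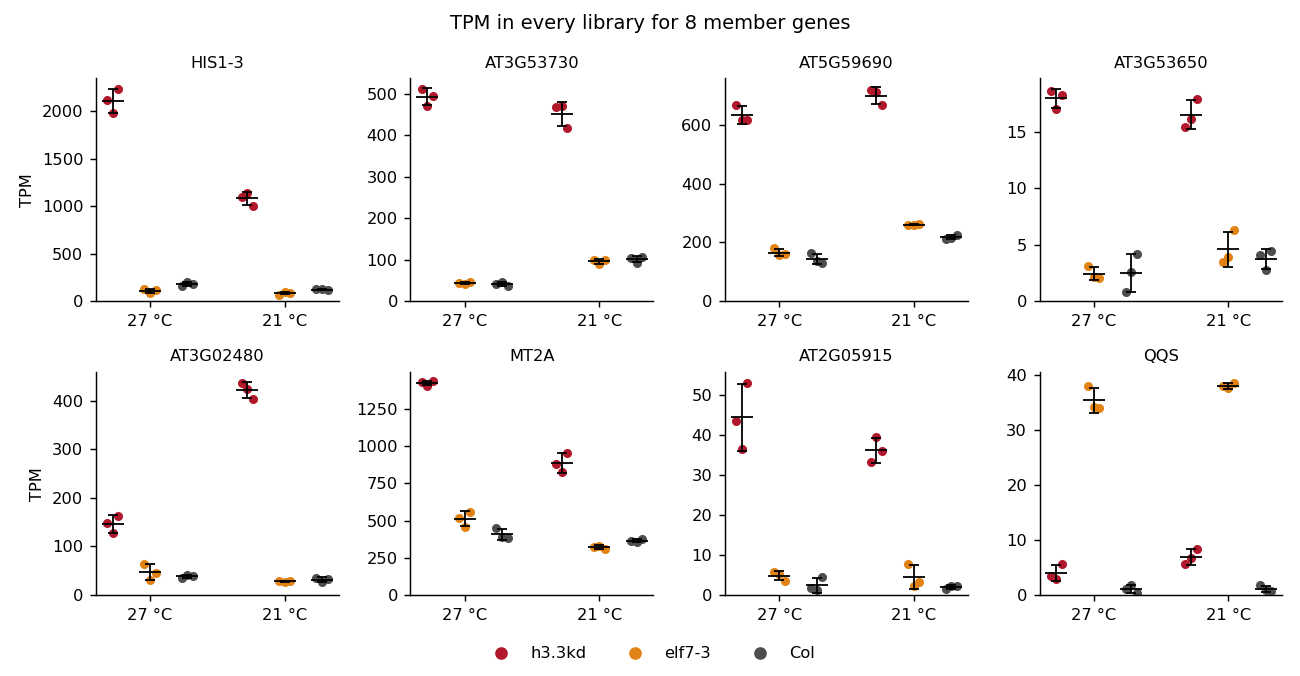
TPM on a linear axis in each of 18 libraries for 8 of the 120 genes, with 27 °C left of 21 °C and the genotypes in the order h3.3kd, elf7-3 and Col. Points are libraries and black marks are the mean and SD of 3. The h3.3kd libraries stand above all others in 7 panels, whereas QQS is highest in elf7-3.

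The 120 genes were shorter than most. Their median coding length was 874.5 bases, against 1152 for all nuclear genes tested, and 18 of 120 (15%) had a coding length of 300 bases or less, against 4.16%. A single exon was annotated for 29 (24.2%), against 16.1%, and without histone genes for 17.8% against 16.0%. They lay on all 5 chromosomes, with 26, 23, 30, 10 and 31 on chromosomes 1 to 5. Of 48 lists of pathway genes and markers, 7 held any of the 120, and the 8 genes so found were HIS1-3, QQS, COR15B, LTI78, EM1, TT4, CYP81D8 and AGL20. Of 11 lists of cell type and organ markers, 0 held one. As these lists are short and the 120 are few among the 19921 nuclear genes tested, this 0 tells little about cell types. The floral organ and pollen markers summed to 1.56 to 2.08 TPM in h3.3kd, 10.9 to 16.1 TPM in elf7-3 and 7.24 to 7.69 TPM in Col at 27 °C, and were lower in h3.3kd also at 21 °C. Of 10 such symbols 6 were found and 3 passed the filter, so these sums rest on few genes of low level. Other lists differed too, such as phloem, where limma called 5 of 7 tested markers lower and 1 higher in h3.3kd at 27 °C (31.6% and 20.2% of all genes tested).

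The size of the h3.3kd minus Col difference varied with temperature. It was larger at 27 °C in 78 of the 120 genes and smaller in 42, with a median change of 0.17. These counts were not computed over all genes and the change was not tested. Among all nuclear genes, more were higher in h3.3kd by at least 1 at 27 °C (426) than at 21 °C (257). For the 120, the difference was larger by 1 or more at 27 °C in 8 genes, led by AT1G09500 (3.72 at 27 °C and 1.45 at 21 °C), AT5G65980 (3.11 and 1.45), AT5G23115 (2.83 and 1.41) and AT3G53730 (3.51 and 2.14). For AT5G23115 the h3.3kd and Col libraries overlapped at both temperatures. The difference was smaller by 1 or more at 27 °C in 2 genes, AT1G04560 (1.08 at 27 °C and 3.36 at 21 °C) and AT3G02480 (1.89 and 3.69). Next to these came AT5G03090 (1.07 at 27 °C and 2.07 at 21 °C) and AT3G29633 (2.17 at 27 °C and 3.14 at 21 °C). For AT3G53730 the larger difference at 27 °C went with a lower Col level, and for AT1G04560 the smaller difference at 27 °C went with a higher Col level.

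In elf7-3 the 120 genes as a list stood close to Col. Both contrasts share the Col libraries, so their values are set side by side only. The median elf7-3 minus Col difference was 0.08 at 27 °C (quartiles -0.20 and 0.38) and 0.06 at 21 °C (quartiles -0.25 and 0.39), and over all nuclear genes tested it was -0.01 at both. The summed TPM of the 120 was 8893 in h3.3kd, 2399 in elf7-3 and 2082 in Col at 27 °C, and 7180 in h3.3kd, 2290 in elf7-3 and 2121 in Col at 21 °C. Single genes went far to either side. QQS, an orphan gene tied to starch content, had 3.48, 2.95 and 5.74 TPM in h3.3kd, 38.2, 34.2 and 34.0 TPM in elf7-3 and 1.05, 1.77 and 0.425 TPM in Col at 27 °C. QQS had 5.68, 6.74 and 8.48 TPM in h3.3kd, 38.1, 37.6 and 38.7 TPM in elf7-3 and 1.79, 0.983 and 0.743 TPM in Col at 21 °C, so that elf7-3 was several times higher than h3.3kd, and Col lowest. The QQS difference from Col was 4.13 at 27 °C and 4.17 at 21 °C in elf7-3, against 1.28 and 1.88 in h3.3kd. Also high in elf7-3 were AT5G23115 (3.28 and 2.56), AT4G40020 (1.55 and 1.08) and AT2G11891 (1.43 and 1.11). The libraries of AT5G23115 differed widely within every group. Lowest in elf7-3 were NRPE3B (-1.71 and -0.79), FRO6 (-1.30 and -1.01), AT1G07450 (-1.11 and -0.99) and AT4G13575 (-1.57 and -0.35).

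**Figure D4:**
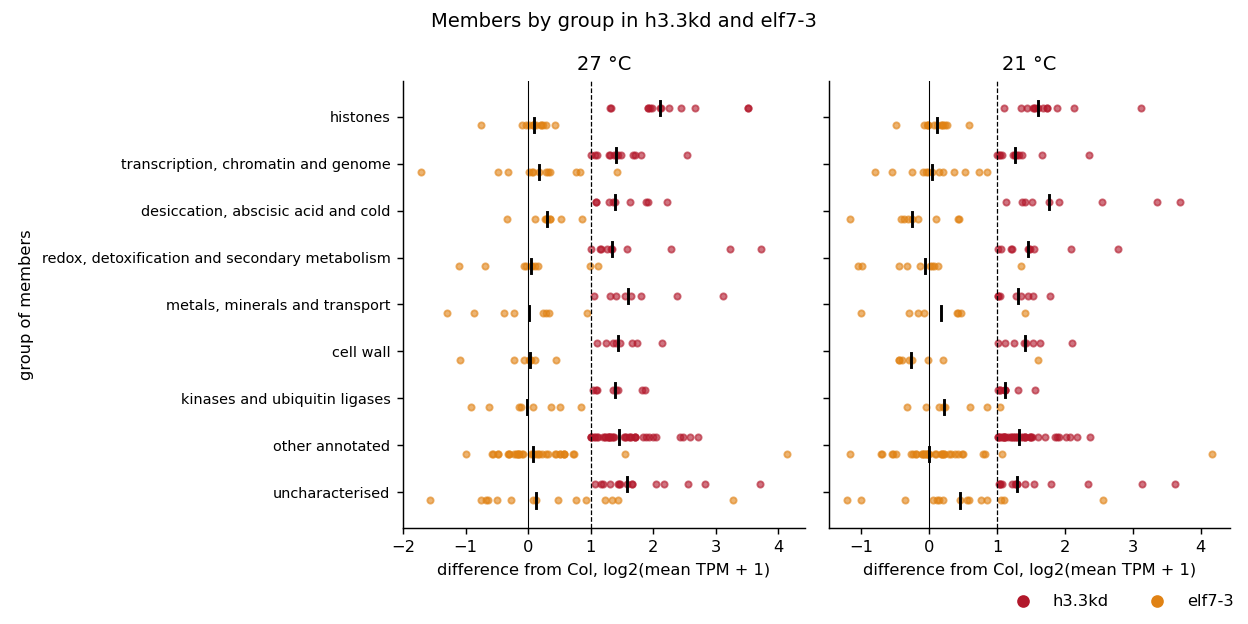
Differences from Col in log2(group mean TPM + 1) of the 120 genes by role (rows), with h3.3kd above elf7-3 in each row and 27 °C left of 21 °C. Points are genes and black marks are medians. The h3.3kd values lie above 1 by the rule; the elf7-3 values centre near 0, at medians of 0.08 and 0.06.

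No elf7-3 library entered the rule, and the response of the 120 genes to warmth in elf7-3 was tested with limma. The fit took each gene's spread from all 18 libraries, including the h3.3kd and Col libraries that chose the genes. Its p-values are therefore not wholly independent of the choice. In elf7-3, 43 of the 120 were higher at 27 °C than at 21 °C (35.8%, against 29.8% of all genes tested) and 23 were lower (19.2%, against 18.3%), at an adjusted p under 0.05. The 120 include genes averaging below 1 TPM in elf7-3, which passed the filter on low values through h3.3kd, so these shares are set beside those of all genes as a description. The median response in elf7-3 was 0.22, against 0.07 over all genes tested. AT1G04560 rose most of the 120 in elf7-3, by 3.45 ± 0.13 (SE, adjusted p = 3.95e-12), on the log2(TPM + 1) scale. It was followed by AT5G53895 (1.75), AT1G10300 (1.54), the oleosin gene AT3G01570 (1.49), the receptor kinase gene AT1G70250 (1.46) and AT1G62290 (1.36). The largest falls in elf7-3 were those of AT5G46940, of the pectin methylesterase inhibitor family, at -2.49 ± 0.28 (SE, adjusted p = 1.35e-06), COR15B (-1.48), AT2G28270 (-1.28) and the H4 genes AT3G53730 (-1.10), AT3G45930 (-1.03) and AT5G59970 (-1.02).

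Most histone genes went down with warmth in elf7-3 and Col. Fewer did in h3.3kd, mainly among the 13 chosen genes and the knocked-down H3.3 genes. The 30 others had much the same median in every genotype, though single genes among them differed. The rule used the h3.3kd and Col libraries at both temperatures, so the smaller count in h3.3kd is a description and was not tested. Of the 13 chosen histone genes, 9 fell and 1 rose in elf7-3, with a median of -0.57. Of the 8 H4 genes, 4 fell in h3.3kd at a median of -0.21, 8 fell in elf7-3 at -0.77 and 8 fell in Col at -0.86. AT3G53730 responded by -1.10 ± 0.08 (SE, adjusted p = 4.83e-09) in elf7-3, -1.24 ± 0.08 (SE, adjusted p = 6.31e-10) in Col and 0.13 ± 0.08 (SE, adjusted p = 0.188) in h3.3kd. AT3G53730 was named partly because its h3.3kd minus Col difference changed much between temperatures, so its Col and h3.3kd values are description only. The histone gene that rose was HIS1-3, which responded by 0.31 ± 0.12 (SE, adjusted p = 0.0482) in elf7-3, 0.57 ± 0.12 (SE, adjusted p = 0.00073) in Col and 0.96 ± 0.12 (SE, adjusted p = 5.64e-06) in h3.3kd. Of the 30 tested histone genes that were neither chosen nor H3.3, 18 fell and 1 rose in h3.3kd (median -0.37), 22 fell and 1 rose in elf7-3 (median -0.34), and 21 fell and 1 rose in Col (median -0.42). Over all 46 tested histone genes, 21 fell and 3 rose in h3.3kd, 34 fell and 2 rose in elf7-3, and 32 fell and 2 rose in Col. Of all genes tested, 19.7% fell and 26.1% rose in h3.3kd, 18.3% fell and 29.8% rose in elf7-3, and 22.1% fell and 32.9% rose in Col.

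The same contrast in Col and h3.3kd uses libraries that entered the rule. In h3.3kd, 54 of the 120 rose with warmth (45%, against 26.1% of all genes tested) and 16 fell (13.3%, against 19.7%), with a median of 0.31. In Col, 43 rose (35.8%, against 32.9%) and 26 fell (21.7%, against 22.1%), with a median of 0.19. In all 3 genotypes 24 genes rose and 8 fell. The share of all genes that did so was not computed, so these counts are description only. Of the 13 chosen histone genes, 3 fell in h3.3kd and 8 in Col, with medians of 0.05 in h3.3kd and -0.60 in Col. MT2A rose by 0.66 ± 0.07 (SE, adjusted p = 7.55e-07) in elf7-3. AT3G02480 fell in h3.3kd, by 1.53 ± 0.17 (SE, adjusted p = 9.00e-07), and rose in elf7-3 by 0.67 ± 0.17 (SE, adjusted p = 0.00284). AT1G04560 gave 0.26 ± 0.13 (SE, adjusted p = 0.11) in h3.3kd and 2.55 ± 0.13 (SE, adjusted p = 5.90e-11) in Col. AT3G02480 and AT1G04560 were named because their h3.3kd minus Col difference changed most between temperatures. That change is in essence the h3.3kd response less the Col response. Their h3.3kd and Col p-values therefore come from the values that picked them and are description only.

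The difference between the elf7-3 and Col responses was tested as an interaction over all genes. It subtracts the response of Col, whose libraries entered the rule, so only the elf7-3 values took no part in the choice. It was called larger in elf7-3 for 6 of the 120 (3.75% of all genes tested) and smaller for 5 (3.51% of all genes tested). Among the 12 genes named for the size of their response in elf7-3, which favours a difference from Col, 3 were called: AT1G04560, AT3G01570 and COR15B, with larger values in elf7-3. COR15B fell in both genotypes, by 1.48 in elf7-3 and by 3.02 in Col. The other 9, the H4 genes AT3G53730, AT3G45930 and AT5G59970 among them, were not called different between elf7-3 and Col, which does not show that they responded alike.

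**Figure D5:**
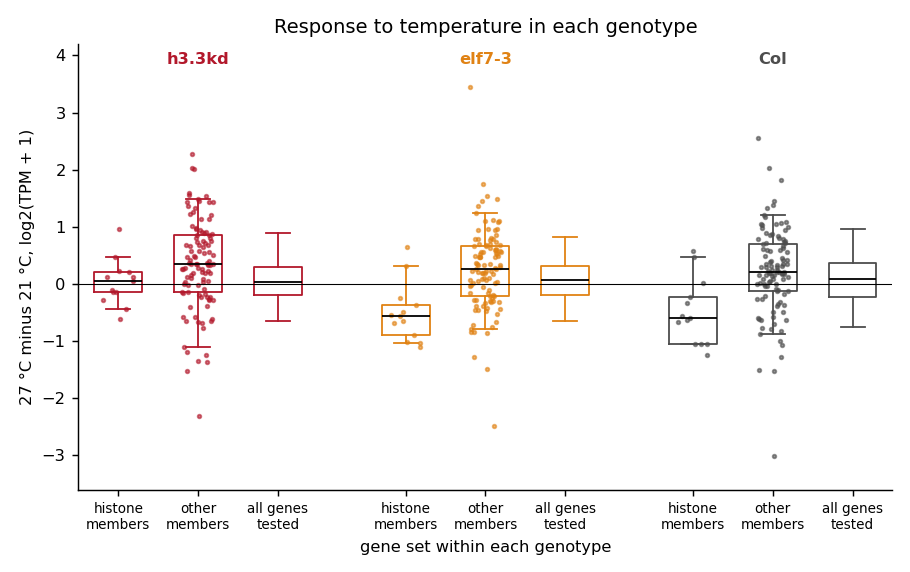
Response to warmth (27 °C minus 21 °C, log2 of TPM + 1) of the chosen histone genes, of the other chosen genes and of all genes tested, in h3.3kd, elf7-3 and Col. Points are genes, boxes are quartiles with the median, and whiskers reach the 5th and 95th percentiles. Medians of the 120 are 0.31 in h3.3kd, 0.22 in elf7-3 and 0.19 in Col, and the histone medians are 0.05 in h3.3kd, -0.57 in elf7-3 and -0.60 in Col.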

How the data were processed

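RNA-seq was done on total RNA of 18 libraries, 3 for each of 3 genotypes at 27 °C and 21 °C. The authors deposited 1 table of TPM values per gene and library. Per the submitters' processing notes, DESeq2 1.26.0, HTSeq 0.11.2, HISAT2 and fastp 0.20.1 were used with the TAIR10 genome; their roles, the gene lengths behind TPM and the use of strand are not given in the sources used here. The table holds no read counts, so depth and counting error are unknown.

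Members were taken by the stated rule. The fit was limma 3.58.1 in R 4.3.3 (trended eBayes, 1 mean per group over all 18 libraries, two-sided) on log2(TPM + 1) for the 20048 genes at 1 TPM or more in at least 3 libraries, with Benjamini-Hochberg adjustment over all of them and calls at 0.05. A log2(TPM + 1) difference understates the change of low genes. The script was tested on simulated data. Tables were handled in Python 3.11.15 with pandas 2.3.3 and numpy 2.4.6, and promoters came from RefSeq tables of TAIR10.1.

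The members, gene lists, roles and motifs were chosen with earlier results of these data known. The octamer, its core and ACGTGG were added after seeing the data. Named genes were the 12 of largest mean difference, the 12 most abundant in h3.3kd, the 6 largest rises and falls in elf7-3, the 4 extremes each way of the temperature dependence and of elf7-3 against Col, list genes, a run of 3 neighbours and genes at the threshold. Further genes were named by role after their values were seen. Alternatives were a pseudocount of 0.1, a filter of 5 TPM, no filter, library weights, a fit of only the compared groups, median-of-ratios scaling, organelle genes removed, the mean of log2 values, a replicate block and each replicate left out.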

Additional observations from a re-analysis of the deposited data

Results flagged for a closer look

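For 3 of the 12 genes named for their response to warmth in elf7-3, the response differed between elf7-3 and Col in limma's interaction test over all genes. The oleosin gene AT3G01570 responded by 1.49 in elf7-3 and 0.20 in Col on the log2(TPM + 1) scale, a difference of 1.29 ± 0.175 (SE, adjusted p = 0.000293). AT1G04560 responded by 3.45 in elf7-3 and 2.55 in Col, a difference of 0.89 ± 0.181 (SE, adjusted p = 0.00565). COR15B responded by -1.48 in elf7-3 and -3.02 in Col, a difference of 1.53 ± 0.429 (SE, adjusted p = 0.0362), so that it fell less in elf7-3. All 3 belong to the desiccation, abscisic acid and cold group, whose members were placed in it after their values were seen. The 12 genes were picked for large responses in elf7-3, and the Col libraries entered the rule that chose the 120, so the p-values do not come from an independent choice of genes.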

How the results depend on the processing

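Under the alternatives, 24 results gave 313 values. Of these, 303 kept their direction and call, or moved less than the replicate spread or 1.5 times for a count, and 10 moved. A reversal or lost call was recorded in 0. A lost call could arise only for the 12 named genes, and a reversal only for them and the median responses to warmth. The median response in Col moved in 6 of its 9 alternatives. The interaction calls were not compared across the alternatives. The number of genes taken by the rule was 342 with a pseudocount of 0.1, all of the 120 among them, since low genes then reach the threshold more easily. It was 136 with median-of-ratios scaling (size factors 0.948 to 1.07), 121 without organelle genes, 115 with the mean of log2 values, and 114 to 127 with 1 library left out, of which 108 to 115 were among the 120. The median elf7-3 minus Col difference at 27 °C was 0.12 with a pseudocount of 0.1, against 0.08. The median response to warmth in elf7-3 was 0.16 to 0.30, in Col 0.13 to 0.25 and in h3.3kd 0.26 to 0.36. Counts called in elf7-3 lay at 37 to 45 higher and 19 to 27 lower, and all 12 named genes kept their call in 168 values.

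With the replicate block, 42 genes were higher and 23 lower with warmth in elf7-3, 52 and 15 in h3.3kd, and 42 and 25 in Col. Deviations of same-numbered libraries correlated at -0.102 to 0.064, so the numbers were not taken to pair samples, and in 1 of 9 cases a 27 °C library correlated best with the 21 °C library of its own number.

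TPM without read counts gives no counting error, so low genes rest on 3 libraries alone, and genes under 1 TPM in Col have differences that the pseudocount shapes. Sharing of reads among H4 genes and between strands was not tested.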

Other observations

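Some of the largest differences from Col belong to genes not yet described by library. The seed maturation gene AT3G22490 had 9.74, 8.41 and 8.14 TPM in h3.3kd, 2.21, 1.11 and 1.40 TPM in elf7-3 and 0.482, 1.5 and 1.3 TPM in Col at 27 °C, with h3.3kd above all others. The uncharacterised gene AT5G53895 had 13.0, 9.69 and 16.3 TPM in h3.3kd, 4.8, 5.70 and 3.24 TPM in elf7-3 and 0.609, 1.71 and 1.85 TPM in Col at 27 °C. AT3G29633, also uncharacterised, had 4.04, 8.05 and 6.42 TPM in h3.3kd, 2.70, 3.06 and 3.37 TPM in elf7-3 and 0, 0.684 and 1.11 TPM in Col at 27 °C and 9.54, 8.16 and 11.8 TPM in h3.3kd, 1.48, 0.968 and 2.23 TPM in elf7-3 and 0.691, 0 and 0 TPM in Col at 21 °C, where the difference was larger.

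Of the other promoter letters searched in the same 250-base windows on both strands, CACGTC was in 16 of the 120 promoters (13.3%) and in 6.36% of all nuclear promoters of tested genes, and in 15 of 38 core histone promoters other than H4 (39.5%). CACGTC can overlap an abscisic acid core on the other strand. The telo-box AAACCCTA was in 1 of the 120 (0.833%) against 3.53% of all, and the TATA box letters TATAAA were in 48 (40.0%) against 46.1%. These matches are descriptions of the letters in these windows.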
